A study of Homo sapiens with 12 samples.

Results

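The genes described are the D-type cyclins (CCND1, CCND2, CCND3), their kinases CDK4 and CDK6, the CDK inhibitors CDKN1A, CDKN1B, CDKN2A and CDKN2C, and the retinoblastoma gene RB1, which makes 10 of the 26210 genes in the expression table. They were selected by symbol, with measured values in view: CCND2 was among the genes with the largest rises in Hodgkin lines over control lines. All comparisons of Hodgkin with control lines are therefore given as a description, without a test. Total RNA depleted of ribosomal RNA was sequenced from 6 groups of 2 libraries each. L428, L1236 and KM-H2 are lines of classical Hodgkin lymphoma and were grown in IMDM. Namalwa is a Burkitt lymphoma line and Reh a B-cell precursor leukaemia line, both grown in RPMI, so medium and lymphoma type cannot be told apart. The last group is Reh treated with the phorbol ester PMA at 2 ng/ml, for a time that the sample labels do not give. Each group is a single established line, so nothing here measures the spread between patients, and nothing says that duplicates came from separate cultures. The p-values below measure only the spread between duplicate libraries, which may be technical.

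D-type cyclins bind CDK4 or CDK6 in G1, and the active kinases phosphorylate the retinoblastoma protein, which releases E2F factors that switch on genes of DNA replication. The INK4 proteins encoded by CDKN2A and CDKN2C bind CDK4 and CDK6 and block them, while the CIP/KIP proteins p21 (CDKN1A) and p27 (CDKN1B) mainly inhibit CDK2 complexes and also bind cyclin D complexes. In B cells CCND3 serves germinal centre and precursor proliferation, CCND2 is induced by antigen receptor and NF-kappaB signals, and CDKN1A is a target of p53.

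Markers of the lines were checked first. Levels are FPKM, fragments scaled for transcript length and sequencing depth, as deposited by the submitters, and libraries are named by the 0 or 1 that ends their column. TNFRSF8, which encodes CD30, stood between 19.1 and 63.7 FPKM in the 6 Hodgkin libraries and at or below 0.505 in the other 6. It was 1 of 5 Hodgkin markers listed, with CCL17, FSCN1, GATA3 and CSF1R. CCL17, FSCN1 and GATA3 were also highest in the Hodgkin libraries, although FSCN1 reached 30.4 FPKM in Reh with PMA. CSF1R was instead highest in Reh with PMA, at 11.8 and 11.2, against 0.246 to 2.05 in the Hodgkin libraries. In the Hodgkin libraries the B-cell marker MS4A1 was listed at 0. A list of 8 B-lineage markers summed to 37.3 and 24.1 FPKM in L1236, where PAX5 alone gave 33.8 and 19.8. The sums were 11.1 and 15.8 in KM-H2, 2.56 and 2.55 in L428, and 982 and 1420 in Namalwa. Reh held RAG1 at 435 and 384 FPKM, against 35.7 and 19.2 in Namalwa. A list of 7 precursor B-cell markers summed to 1320 and 1230 FPKM in Reh and 213 and 216 in Namalwa. Within it VPREB1 went the other way, listed at 0 in Reh and at 11.4 and 7.89 in Namalwa. MS4A1 reached only 0.161 and 0.229 in Reh, against 5.98 and 14.6 in Namalwa. Of 10 reference genes used by every cell, none was listed at 0 in any library. They summed to 14838 FPKM in L428 0 and 5174 in L428 1, a wider gap than within any other group. Duplicates ranked genes alike, with Spearman correlations across genes of 0.929 to 0.969, but the Hodgkin duplicates spread more: the SD of the log2 difference between duplicates was 0.85 to 0.949 in the Hodgkin lines and 0.393 to 0.575 in the other groups.

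The D-type cyclin that dominated differed by line. CCND2 stood at 157 and 247 FPKM in L428, 62.5 and 77.3 in L1236, and 159 and 82.5 in KM-H2. It was 0.016 and 0 in Namalwa, 0.899 and 1.57 in Reh, and 4.40 and 3.41 in Reh with PMA. CCND2 was thus high in every Hodgkin library and low in all 6 others. L428 led on the mean and overlapped with KM-H2, L1236 lay below both without overlap, and Reh with PMA lay above untreated Reh. In bulk RNA, fewer cells carrying a transcript and less transcript per cell cannot be told apart. On the scale of log2(FPKM + 1), which understates folds of low genes, the mean of the Hodgkin line means exceeded that of Reh and Namalwa by 6.30. This placed CCND2 at rank 10 of the 14679 genes that passed the filter on low values, an FPKM of at least 1 in at least 2 libraries. Its neighbours in that order were IL1R2 with a difference of 6.31 and CCL17 with 6.12. These values are part of why the gene was chosen.

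CCND3 was 257 and 218 FPKM in Reh, 127 and 164 in Namalwa, and 14.2 and 16.6 in Reh with PMA. In the Hodgkin lines it was 12.7 and 11.3 in L428, 28.3 and 18.9 in L1236, and 11.3 and 17.1 in KM-H2. Untreated Reh and Namalwa were high without overlap with the other 4 groups, and among those 4 L1236 was highest, with KM-H2, L428 and treated Reh close together. CCND1, the D cyclin often activated by translocation in mantle cell lymphoma, was low throughout. It was 3.05 and 4.10 in Reh with PMA and 2.13 and 0.722 in L428. In the remaining 8 libraries CCND1 was at or below 0.223, and it passed the filter only through Reh with PMA and L428.

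As a share of the summed FPKM of the 3 cyclins, which can be compared within a library because FPKM is per length, CCND2 made up 68.8% to 95.3% in the Hodgkin libraries. CCND3 made up 99.2% to 99.97% in Namalwa and untreated Reh. In Reh with PMA the 3 cyclins were mixed, with CCND3 at 65.7% and 68.8%, CCND2 at 20.3% and 14.2%, and CCND1 at 14.1% and 17.0%. The summed level of the 3 cyclins was 258 and 219 FPKM in Reh and 21.7 and 24.1 in Reh with PMA. The Hodgkin libraries held 90.8 to 259 FPKM, a range that spans Namalwa at 127 and 164 and reaches untreated Reh.

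RefSeq promoter windows were matched by symbol for 8 of the 10 genes, with none for CCND1 and CCND2. Windows covered 250 bases before the start, and those printed here are stretches that matched the GRCh37 genome exactly at 1 place and that no annotated exon covers. A CCND3 window is shown because CCND3 separated the untreated control lines from all other groups. It lies within an intron of longer CCND3 transcripts, on the minus strand of chr6:41909547-41909796 (GRCh37). Capitals mark the GC box GGGCGG, read on both strands, where it appears as GGGCGG or CCGCCC. The sequence runs 5′ to 3′ and ends 1 base before the start.
CCND3: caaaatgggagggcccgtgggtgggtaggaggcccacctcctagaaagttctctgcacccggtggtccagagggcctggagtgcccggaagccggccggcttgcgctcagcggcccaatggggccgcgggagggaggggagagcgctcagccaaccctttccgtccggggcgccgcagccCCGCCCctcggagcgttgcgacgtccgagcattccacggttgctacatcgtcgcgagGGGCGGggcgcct
It held 2 GC boxes. The other exon-free CCND3 window, at chr6:41906944-41907193, held 0. Of 35116 windows of this length in the table, 42.6% held at least 1 and 24.3% at least 2. The AP-1 sequence TGACTCA, the cyclic AMP element TGACGTCA, the E-box CACGTG and the E2F sequences TTTCGCGC and TTTGGCGC were not found in it. On both strands they occurred in 4.2%, 1.65%, 6.34%, 0.438% and 0.55% of all windows.

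**Figure D1:**
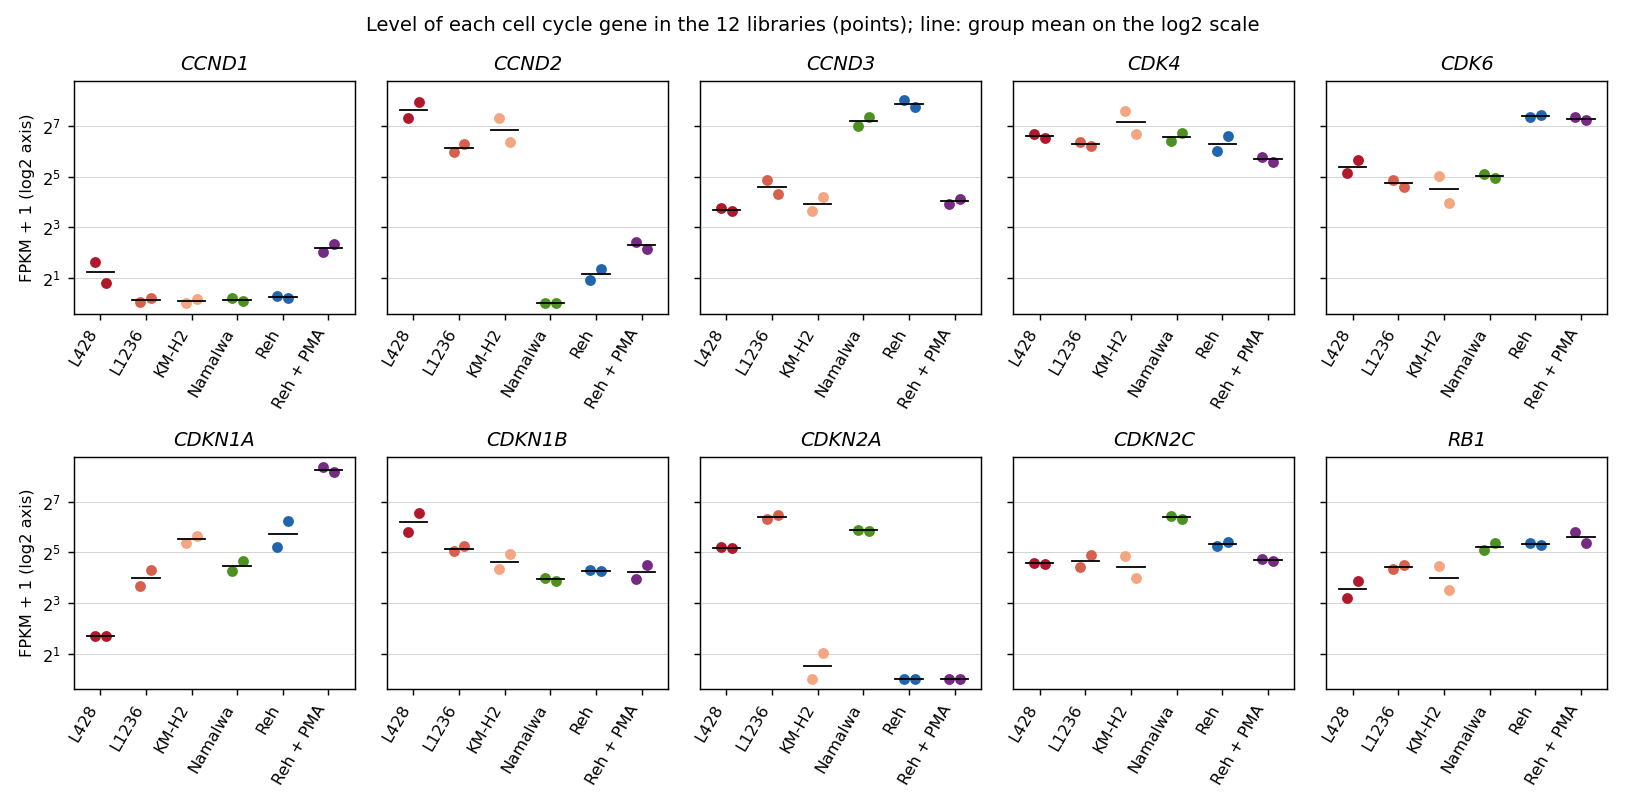
Level of the 10 genes in each library, as FPKM + 1 on a log2 axis, by group. Each point is 1 library and each line the mean of the 2 libraries on the log2 scale. CCND2 is high in the 6 Hodgkin libraries (62.5 to 247 FPKM) and CCND3 in untreated Namalwa and Reh (127 to 257 FPKM).

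CDK4 and CDK6, the kinase partners of the D cyclins, split along another line. CDK6 was 163 and 171 FPKM in Reh and 162 and 151 in Reh with PMA. Namalwa held 33.4 and 29.6, L428 34.1 and 49.4, L1236 28.3 and 23.1, and KM-H2 31.9 and 14.6. Reh was therefore high with or without PMA, and Namalwa lay inside the range of the Hodgkin libraries. CDK4 ranged only from 46.7 to 193 FPKM over the 12 libraries, with Reh with PMA lowest and KM-H2 highest on the mean. Untreated Reh overlapped with L428, L1236 and Namalwa in CDK4, KM-H2 overlapped with Namalwa, and L1236 lay below L428 and Namalwa. CDK6 made up 64.0% to 76.4% of CDK4 plus CDK6 in the 4 Reh libraries and 12.4% to 35% in the other 8. CDK4 shares 2493 bases with TSPAN31 on the opposite strand, which stood at 4.23 to 33.4 FPKM. Whether fragments were counted by strand is not given in the sources used here, so reads of such pairs may not have been separated.

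The CDK6 window that lies upstream of the whole gene is printed because CDK6 separated Reh from Namalwa. It is on the minus strand at chr7:92465888-92466137 (GRCh37), inside the body of the antisense gene CDK6-AS1 but outside its annotated exons. Capitals mark GGGCGG on either strand.
CDK6: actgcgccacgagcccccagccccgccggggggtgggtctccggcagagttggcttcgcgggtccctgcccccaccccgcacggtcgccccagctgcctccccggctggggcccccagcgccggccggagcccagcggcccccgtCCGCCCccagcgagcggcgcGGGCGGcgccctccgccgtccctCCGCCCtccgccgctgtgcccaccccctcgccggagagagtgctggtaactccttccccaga
It held 3 GC boxes, and 13.9% of all windows held at least as many. None of the other sequences searched was found. The other CDK6 window, inside the gene at chr7:92463274-92463523, held 0 GC boxes.

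Among the CIP/KIP inhibitors, CDKN1A varied most. It stood at 2.2 and 2.28 FPKM in L428, 11.7 and 18.7 in L1236, and 40.5 and 49.8 in KM-H2. Namalwa held 18.5 and 24.6, Reh 35.9 and 74.1, and Reh with PMA 328 and 286. L428 was lowest and treated Reh highest, each without overlap with any other group, while L1236 overlapped with Namalwa and KM-H2 with untreated Reh. CDKN1B was highest in L428, at 55.5 and 94.3, followed by L1236 at 32.3 and 36.9. KM-H2 held 19.0 and 29.2 FPKM of CDKN1B, and the 6 libraries of Namalwa, Reh and Reh with PMA 13.8 to 21.8. KM-H2 and Reh with PMA overlapped in CDKN1B. The GENCODE annotation places GPR19 over 10710 bases of the CDKN1B gene on the other strand, an overlap that the annotation behind the FPKM values may lack. GPR19 was also highest in L428 on the mean, at 10.0 and 21.4 FPKM. It overlapped with L1236, at 5.16 and 10.7.

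CDKN1A made up 2.36% and 3.82% of CDKN1A plus CDKN1B in L428 and 26.7% and 33.6% in L1236. The other 8 libraries held 55.2% to 95.8%, with the 2 libraries of Reh with PMA on top. The stretches before the starts of both genes are shown, CDKN1A because of its range and CDKN1B for comparison. CDKN1A lies on the plus strand, and the 150 bases at chr6:36646337-36646486 (GRCh37) end 5 bases before the start. CDKN1B is also on the plus strand, at chr12:12870052-12870301 (GRCh37). Both stretches lie within the annotated body of their gene, where longer transcripts pass, and that of CDKN1A also within DINOL on the other strand. Capitals again mark GGGCGG on either strand, and 2 copies in CDKN1A overlap.
CDKN1A: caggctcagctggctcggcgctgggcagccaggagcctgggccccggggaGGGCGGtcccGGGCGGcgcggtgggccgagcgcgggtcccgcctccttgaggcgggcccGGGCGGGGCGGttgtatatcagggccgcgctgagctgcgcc
CDKN1B: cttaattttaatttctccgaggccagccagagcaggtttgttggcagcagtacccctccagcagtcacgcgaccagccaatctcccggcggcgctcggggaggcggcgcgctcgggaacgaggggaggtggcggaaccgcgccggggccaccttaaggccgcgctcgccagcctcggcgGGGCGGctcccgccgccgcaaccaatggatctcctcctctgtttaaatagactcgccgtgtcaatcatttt
The CDKN1A stretch held 4 GC boxes, and 4.07% of all windows held 4 or more in the same 150 positions. The CDKN1B window held 1. These matches are letters in a window and say nothing of binding.

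**Figure D2:**
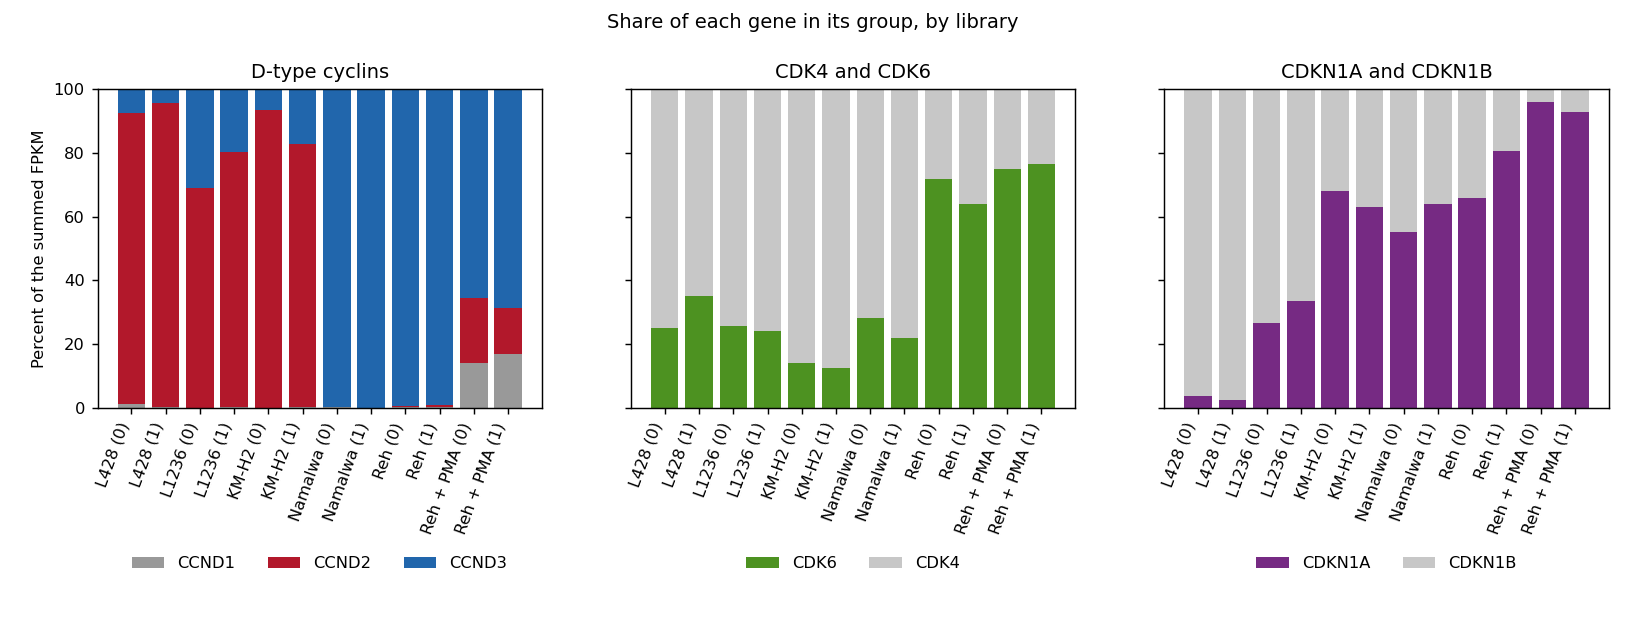
Share of each gene in the summed FPKM of its group, in percent, by library (0 and 1 are the duplicates), for the D-type cyclins, for CDK4 with CDK6, and for CDKN1A with CDKN1B. CCND2 fills most of the Hodgkin bars and CCND3 the untreated control bars, CDK6 exceeds CDK4 only in the 4 Reh libraries, and CDKN1A is smallest in L428.

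Of the INK4 inhibitors, CDKN2A was close to all or nothing. It was 79.7 and 88.5 FPKM in L1236, 58.2 and 57.1 in Namalwa, and 36.2 and 34.9 in L428. It was 0 and 1.04 in KM-H2 and listed at 0 in all 4 libraries of Reh and Reh with PMA. The order L1236, Namalwa, L428 had no overlap between neighbours. The gene encodes both p16INK4A and p14ARF from separate first exons, and the table does not separate them. It shares 1163 bases with CDKN2B-AS1 on the other strand, which was at most 6.61 FPKM. CDKN2C, which encodes p18INK4C, was highest in Namalwa at 86.1 and 78.5 FPKM and next in Reh at 37.5 and 42.1. The other 8 libraries held 15.0 to 28.4 and overlapped.

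RB1, the substrate of the cyclin D kinases, ranged from 8.19 to 55.2 FPKM. Namalwa, Reh and Reh with PMA together held 32.8 to 55.2, and the 6 Hodgkin libraries 8.19 to 21.4, with overlap inside each of those sets. Within the RB1 gene, LPAR6 is annotated on the opposite strand and stood at 16.7 to 32.1 FPKM in the 4 Reh libraries and at most 1.64 elsewhere. In the GENCODE annotation RCBTB2 overlaps RB1 on that strand over 44294 bases. It stood at 5.64 to 16.6 FPKM in the 4 Reh libraries and at most 3.20 elsewhere.

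Set against Reh and Namalwa as a description, CCND2, chosen for this, had all 6 Hodgkin libraries above all 4 control libraries. Of the other 9 genes only CDKN1B did so, beside 9.5% of the 14679 genes. Its margin was narrow, with the lowest Hodgkin value at 19.0 FPKM in KM-H2 0 and the highest control value at 18.7 in Reh 0. CCND3, CDKN2C and RB1 had all 6 below all 4, as did 8.06% of all genes. The differences between means of line means were 1.21 for CDKN1B, -3.47 for CCND3, -1.31 for CDKN2C and -1.30 for RB1 on the log2(FPKM + 1) scale. That of CDKN1B was 0.78 without L428, and that of CDKN2C -0.79 without Namalwa and -1.82 without Reh. The other 5 genes overlapped, and several of their means rested on single lines. The CDK6 difference of -1.33 became -0.14 without Reh and -2.52 without Namalwa. That of CDKN1A, -1.36, became -0.34 without L428, -0.74 without Reh, -1.98 without Namalwa and -2.26 without KM-H2. For CDKN2A the difference was 1.10 with all lines, -1.84 without Reh, -0.08 without L1236 and 4.04 without Namalwa. CDK4 differed by 0.24, and by 0.67 and -0.19 in the libraries numbered 0 and 1 taken alone. CCND1 differed by 0.29, or by -0.08 without L428.

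The first test asked whether these genes changed in Reh with PMA. PMA is an activator of protein kinase C. Genes were called when limma with Benjamini-Hochberg adjustment over all 14679 genes gave an adjusted p under 0.05 and the log2 difference was at least 1, a 2-fold change. The median difference of all genes was -0.03. The levels of CCND2 in untreated Reh, Namalwa and the Hodgkin lines were part of its choice, so its values below are a description and the counts are of the other 9 genes. Of these, 2 were higher (CDKN1A, CCND1) against 10.5% of all genes and 1 was lower (CCND3) against 11.8%. All 10 passed the filter, but CCND1 reached 1 FPKM in only 3 libraries, L428 0 and both of Reh with PMA. It thus entered the test through the treated group, and its call was the same with no filter on low values.

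CCND3 fell from 257 and 218 FPKM to 14.2 and 16.6, a log2 difference of -3.86 ± 0.26 (SE, 2 libraries a group; limma, Benjamini-Hochberg adjusted p = 1.8e-05). CDKN1A rose from 35.9 and 74.1 to 328 and 286, by 2.54 ± 0.34 (limma, adjusted p = 7.7e-04). CCND1 rose from 0.223 and 0.15 to 3.05 and 4.10, by 1.94 ± 0.25 (limma, adjusted p = 6.7e-04). In all 3 genes both treated libraries lay beyond both untreated libraries, and the calls held under all 21 alternatives, or for CCND1 under the 20 that kept it in the table. CCND2 was 0.899 and 1.57 without and 4.40 and 3.41 with PMA, a difference of 1.14 given as a description. It ranged from 0.92 without Reh 0 to 1.36 without Reh 1. Even treated, CCND2 remained at or below 4.40 FPKM, under the lowest Hodgkin value of 62.5.

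The kinases, the other inhibitors and RB1 did not meet the rule. The log2 differences were -0.63 for CDK4, -0.09 for CDK6, -0.05 for CDKN1B, -0.64 for CDKN2C and 0.25 for RB1, with limma adjusted p-values of 0.11 to 0.974. CDKN2A was listed at 0 on both sides and could not be compared.

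Lists of other cell cycle genes were counted next. Of 28 further G1/S genes, such as E-type cyclins and E2F factors, 13 fell, against 11.8% of all genes, with a median difference of -0.53. In the same list 1 rose, against 10.5%, a count that was not stable when single libraries were left out. The E2F activators E2F2 and E2F1 went from means of 54.2 and 53.4 FPKM to 3.16 and 8.44, differences of -3.76 and -2.52 (limma, adjusted p = 3.2e-05 and 2.0e-04). The E-type cyclins CCNE2 and CCNE1, partners of CDK2, went from 28.7 and 20.2 to 3.32 and 3.19 FPKM, differences of -2.78 and -2.34 (limma, adjusted p = 0.0037 and 9.1e-04). Of 24 DNA replication genes 14 fell and 0 rose, beside the same shares of all genes, with a median of -1.32. The MCM helicase subunits MCM3 and MCM2 fell by 2.25 and 2.08 on the log2 scale. UHRF1, a partner of the maintenance DNA methyltransferase, had a difference of -3.49. Leaving out any 1 of the 4 libraries of Reh and Reh with PMA ended the call of UHRF1, at -3.63 to -3.35. It also lowered the count of 14 to 7 without Reh 0 or treated Reh 0, and to 5 without Reh 1 or treated Reh 1.

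Of 22 mitotic genes, 3 fell, against 11.8% of all genes, and 0 rose, with a median of -0.36. These were CENPF with a difference of -1.28, NUSAP1 with -1.27 and CDC25C with -1.22. The call of CENPF was lost without Reh 0, at -1.20, and that of CDC25C without Reh 0, at -1.03, or treated Reh 1, at -0.99. Of 18 p53 targets other than CDKN1A, 4 rose, against 10.5% of all genes, and 3 fell, against 11.8%, with a median of -0.20. The 3 became 5 without either KM-H2 library. The antiproliferative gene BTG2 and the kinase gene PLK2 rose by 2.58 and 2.25, the death receptor gene FAS by 2.22 and the stress gene GADD45A by 1.73. The call of FAS was lost without Reh 0 (1.76) or treated Reh 0 (1.62). That of GADD45A was lost without Reh 0 (1.97), Reh 1 (1.5), treated Reh 0 (1.72) or treated Reh 1 (1.75). With only the 4 libraries compared, CDC25C and FAS were not called, and with the spread of the 6 libraries of Namalwa, Reh and Reh with PMA, GADD45A was not.

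Markers of cell identity were counted in the same comparison, to be read beside the 10.5% of all genes that rose and the 11.8% that fell. Of 6 precursor B-cell markers tested, 4 fell (RAG1, RAG2, IGLL1, MME), and the summed level of the list of 7 went from 1320 and 1230 FPKM to 131 and 142. Of 8 B-lineage markers 4 fell and 1 rose, with sums of 1007 and 1079 before and 1116 and 1359 after. CD79B led that list in Reh 0 at 394 FPKM and CD79A in the other 3 libraries, at 429 to 1102. The myeloid gene MPO was 24.8 and 32.0 FPKM before and 6.44 and 5.00 after PMA. CSF1R, a receptor gene on the Hodgkin list, was 0.285 and 0.202 before and 11.8 and 11.2 after. Of the 5 Hodgkin markers 1 rose and 0 fell. Of 10 reference genes, 2 rose, with a median of 0.56. Their part in the changes of the cell cycle genes was not tested.

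**Figure D3:**
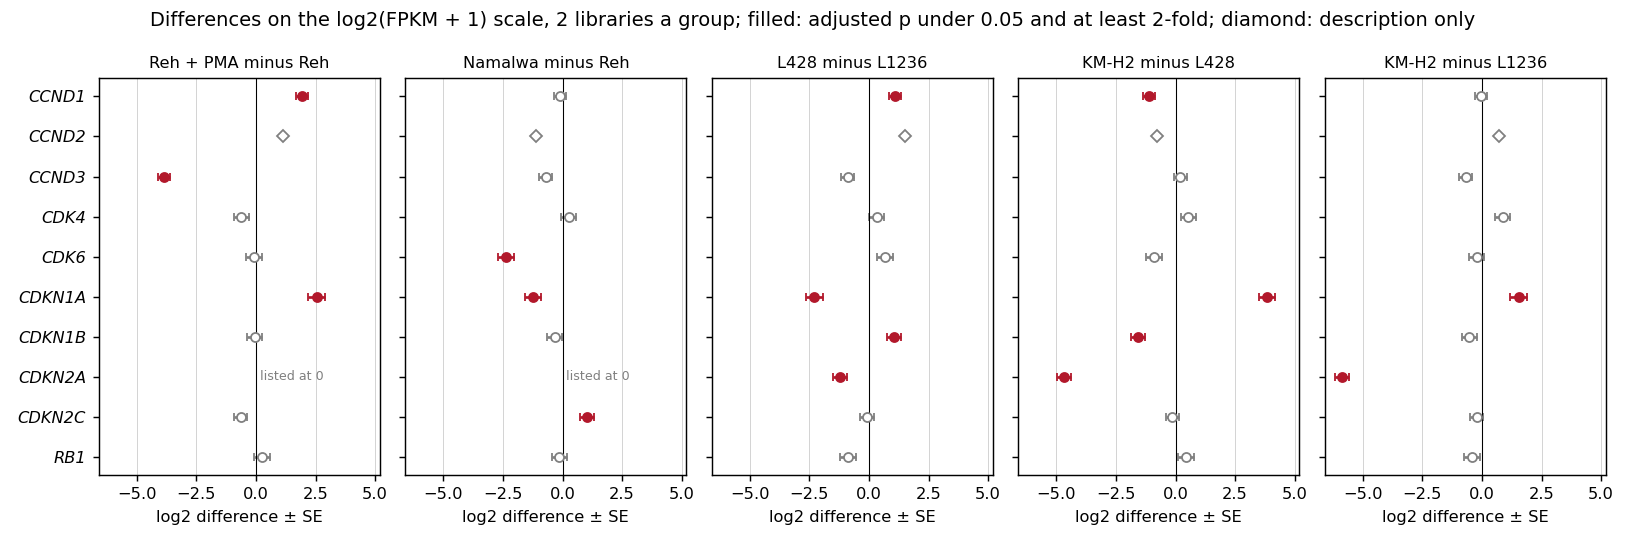
Log2 differences of the 10 genes in the 5 tested comparisons, on the log2(FPKM + 1) scale, with standard errors from limma and 2 libraries a group. Diamonds give CCND2 as a description, without error. Filled points passed an adjusted p of 0.05 and a 2-fold change, and CDKN2A is left out where a group is listed at 0. After PMA, CCND3 has the lowest value (-3.86), and CDKN1A has the highest between KM-H2 and L428 (3.83).

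The control lines were compared next, Namalwa against Reh. The fit called Namalwa higher in CDKN2A and CDKN2C, 2 of 9 genes against 7.5% of all genes, and lower in CDK6 and CDKN1A, 2 of 9 against 11.5%. CDK6 differed by -2.37 ± 0.33 (limma, adjusted p = 6.0e-04), with both Namalwa libraries under both Reh libraries. CDKN2A was present in Namalwa at 58.2 and 57.1 FPKM and listed at 0 in Reh, so no fold is given (limma, adjusted p = 1.0e-06). These calls held in every alternative.

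The other calls between the control lines were near the threshold. CDKN2C differed by 1.03 ± 0.28 (limma, adjusted p = 0.024) and CDKN1A by -1.24 ± 0.34 (adjusted p = 0.026). CDKN2C lost its call without Namalwa 0 (0.97), Namalwa 1 (1.10), Reh 0 (0.95) or Reh 1 (1.11), and fell under 2-fold with upper quartile scaling (0.98) or quantile normalization (0.89). CDKN1A lost it without Namalwa 0 (-1.04), Namalwa 1 (-1.44) or Reh 1 (-0.73), and also with only the 4 libraries compared or with the spread of the 6 libraries of Namalwa, Reh and Reh with PMA (limma, adjusted p of 0.156 and 0.0878; 0.007 to 0.187 over all alternatives). CCND2, whose level in these lines was part of its choice, differed by -1.13 as a description. CCND3 differed by -0.71 (limma, adjusted p = 0.085), with both Namalwa libraries below both Reh libraries, and CDK4, CDKN1B, RB1 and CCND1 by 0.27, -0.33, -0.13 and -0.11.

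Of the wider lists, 2 of 28 G1/S genes were higher in Namalwa and 3 lower, close to the 7.5% and 11.5% of all genes. The count of 3 lower was not stable when single libraries were left out. The repressor E2F5 stood at 81.2 FPKM in Namalwa and 3.63 in Reh on the mean, a difference of 4.15 (limma, adjusted p = 1.1e-05). TFDP1, the dimer partner of E2F factors, was 2.29 higher (adjusted p = 0.0044 by limma). CDKN2D, the INK4 gene for p19, had a difference of -1.5 and MNAT1, a subunit of the CDK-activating kinase, of -1.26. Both of these calls ended without Namalwa 0, Reh 0, Reh 1 or either library of Reh with PMA. That of CDKN2D also ended without Namalwa 1 or either L1236 library, and that of MNAT1 without either KM-H2 library. The MNAT1 difference shrank to -0.82 without Namalwa 0, while that of CDKN2D stayed between -1.61 and -1.38. Leaving out libraries of other groups moved neither value. By limma, 0 of 24 DNA replication genes and 0 of 22 mitotic genes met the rule. Of 18 p53 targets 2 were higher, BTG2 by 3.19 and GADD45A by 2.61, and 3 lower, against the same 7.5% and 11.5%. The count of 3 lower was not the same with every library left out. The strongest of the lower ones were PHLDA3 and PLK2, listed at 0 in Namalwa and at means of 4.16 and 3.87 FPKM in Reh. GADD45A was 52.6 and 16.9 FPKM in Namalwa, and its difference ran from 1.82 to 3.40 on leaving out a library. With only the 4 libraries compared, GADD45A, PHLDA3, PLK2 and MNAT1 were not called. With the spread of the 6 libraries of Namalwa, Reh and Reh with PMA, PHLDA3 and MNAT1 were not. Of 6 precursor B-cell markers tested, 4 were lower in Namalwa and 1 higher, against 11.5% and 7.5% of all genes. Of 8 B-lineage markers, 2 were lower and 2 higher.

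The 3 Hodgkin lines were compared in pairs, which share libraries and are not independent of each other. L428 was higher than L1236 in CCND1 and CDKN1B, 2 of 9 against 11% of all genes, and lower in CDKN1A and CDKN2A, 2 of 9 against 10.9%. CDKN1A, at 2.2 and 2.28 FPKM in L428 and 11.7 and 18.7 in L1236, differed by -2.29 ± 0.34 (limma, adjusted p = 9.3e-04), and this call held in every alternative. CDKN1B differed by 1.05 ± 0.31 (limma, adjusted p = 0.029), CCND1 by 1.08 ± 0.25 (adjusted p = 0.011) and CDKN2A by -1.22 ± 0.29 (adjusted p = 0.012). CCND2 differed by 1.49 as a description.

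The calls of CDKN1B, CCND1 and CDKN2A depended on the spread assumed. CCND1 and CDKN1B were lost with only the 4 libraries of these lines in the fit. All 3 were lost when the spread came from the 6 Hodgkin libraries alone, an alternative chosen after seeing the data, with limma adjusted p-values of 0.0727 to 0.109. Over all alternatives that of CDKN2A reached 0.338, with a pseudocount of 0.1. CDKN1B also lost its call without L1236 0 (0.95), L1236 1 (1.14) or L428 1 (0.67). CDKN2A lost it without L1236 0 (-1.29), L1236 1 (-1.14) or L428 1 (-1.19). CCND1 lost it without L1236 0 (1.00), and without L428 0 the difference shrank to 0.65. The values themselves did not overlap between the 2 lines in any of the 3 genes.

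KM-H2 was higher than L428 in CDKN1A, 1 of 9 against 13.7% of all genes, and lower in CDKN2A, CDKN1B and CCND1, 3 of 9 against 12.9%. CDKN1A, at 40.5 and 49.8 FPKM in KM-H2, differed by 3.83 ± 0.34 (limma, adjusted p = 3.2e-05). CDKN2A, at 0 and 1.04 in KM-H2, differed by -4.68 ± 0.29 (limma, adjusted p = 3.7e-06). Both calls held in every alternative. CDKN1B differed by -1.58 ± 0.31 (limma, adjusted p = 0.0033), a call lost with only the 4 libraries of these lines in the fit (0.0895 by limma; 0.0015 to 0.0895 over all alternatives). CCND1 differed by -1.13 ± 0.25 (limma, adjusted p = 0.0073), a call lost without L428 0 (-0.70), with only the 4 libraries compared (0.122 by limma) and with the spread of the 6 Hodgkin libraries (0.0553; 6.2e-04 to 0.122 over all alternatives).

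Against L1236, KM-H2 was again higher in CDKN1A, 1 of 9 against 13.5% of all genes, and lower in CDKN2A, 1 of 9 against 13.2%. The differences were 1.54 ± 0.34 for CDKN1A (limma, adjusted p = 0.0069) and -5.89 ± 0.29 for CDKN2A (limma, adjusted p = 6.5e-07). Without L1236 0 the CDKN1A difference was 1.22 and its call was lost. The KM-H2 duplicates differed widely in CDK4 and CDK6, and some differences passed the rule when 1 of them was left out. Without KM-H2 1, CDK4 exceeded L1236 by 1.31, and without KM-H2 0 the CDK6 difference from L428 was -1.43. The CCND3 difference of L428 from L1236 was -1.17 without L1236 1, against -0.89 with all libraries. CDKN2C and RB1 met the rule in none of the 3 pairs.

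KM-H2 also held RNA of genes that mark other blood cells. Of 6 T-cell markers, CD3D was 13.5 and 22.5 FPKM and CD3G 3.25 and 2.85, while CD3E was 0.197 and 0 and TRAT1 0 in both libraries. The list summed to 17.8 and 26.3. In L428 and L1236 that sum was at most 0.170, with CD3D and CD3G at 0. Of 6 myeloid markers, CD14 was 5.79 and 4.56 and ITGAM 9.14 and 4.24, with sums of 15.5 and 9.05 FPKM. The myeloid sums were 0.375 and 0.757 in L1236 and 0.128 and 5.68 in L428, where MPO alone gave 5.35. Outside the Hodgkin lines, untreated Reh had higher myeloid sums, at 28.3 and 34.7 FPKM, where MPO gave 24.8 and 32.0. CD8A, MPO, ELANE and CD163 were at 0 in both KM-H2 libraries. The part of these transcripts in the differences of KM-H2 was not tested.

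Of 22 mitotic genes, 7 were higher in L428 than in L1236, against 11% of all genes, and 0 lower, with a median of 0.80 against 0 for all genes. AURKB differed by 2.31, BIRC5 by 1.91, CDK1 by 1.87 and BUB1 by 1.65 (limma, adjusted p = 2.2e-04 to 7.5e-04). CDK1 is the kinase that drives entry into mitosis, AURKB and BUB1 act at kinetochores, and BIRC5 is a partner of AURKB. Against L428, KM-H2 was lower in 6 of the 22, against 12.9% of all genes, and higher in 0, with a median of -0.87. BUB1 differed by -2.47, the checkpoint kinase TTK by -1.65, AURKB by -1.52 and CDK1 by -1.41. Between KM-H2 and L1236 only BIRC5 met the rule, at 1.03, beside 13.5% of all genes higher and 13.2% lower. It lost its call without KM-H2 0 (0.95) or L1236 0 (0.92).

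Of 28 G1/S genes, L428 was higher than L1236 in 2 and lower in 3, against 11% and 10.9% of all genes. CCNE1 differed by -1.81, the repressor E2F6 by -1.40, the INK4 gene CDKN2B by -1.30 and CDKN2D by 1.30, the last lost without any 1 of the L428, L1236, Namalwa, Reh or treated Reh libraries (adjusted p of 0.071 to 0.18 by limma). KM-H2 was higher than L428 in 2 and lower in 6, against 13.7% and 12.9% of all genes, and higher than L1236 in 3 and lower in 8, against 13.5% and 13.2%. On leaving out a library the 6 ran from 3 to 6, the 3 from 1 to 3, the 2 above L428 from 1 to 3, and the 2 of L428 above L1236 from 0 to 3. E2F2 was 0.0526 and 0.278 FPKM in KM-H2, with differences of -3.88 from L428 and -2.89 from L1236. MYC, which drives growth and entry into the cycle, differed by -2.03 and -1.96, the E2F repressor E2F4 by 1.98 and 1.60, and CCNH, the cyclin of the CDK-activating kinase, by -1.61 and -1.40. The calls of CCNH were lost without KM-H2 0 in both pairs (-1.09 and -0.89), against L428 without L428 1 (-1.15), and against L1236 without L1236 0 (-1.56) or L1236 1 (-1.24).

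Of 24 replication genes, L428 exceeded L1236 in TK1 by 1.73 and CDT1 by 1.17 and was lower in 0, beside 11% and 10.9% of all genes. KM-H2 was higher than L428 in POLA1 (1.40) and lower in GINS2 (-1.74), MCM6 (-1.26) and MCM3 (-1.12), beside 13.7% and 12.9% of all genes. The 3 lower became 0 without KM-H2 1 and 6 without KM-H2 0. Against L1236 it was lower in RRM2 (-1.89), MCM3 (-1.28) and GINS2 (-1.24) and higher in 0. Those counts were 0 lower and 2 higher without KM-H2 1 and 6 lower without KM-H2 0, against 13.2% and 13.5% of all genes. These are enzymes of nucleotide supply (TK1, RRM2), factors that load or form the replicative helicase (CDT1, GINS2, MCM3, MCM6) and a polymerase subunit (POLA1). Each of these 9 calls was lost without at least 1 library of the lines compared. Without KM-H2 1, GINS2 stood at -1.30 and MCM3 at -0.83 against L428, MCM6 at -0.80, and against L1236 RRM2 at -1.26, MCM3 at -0.99 and GINS2 at -0.79. Without L428 0, TK1 was 1.57, CDT1 0.92, POLA1 1.24, GINS2 -1.51 and MCM6 -1.47, and without L428 1 TK1 was 1.89, POLA1 1.57, MCM3 -1.10 and MCM6 -1.05. Without L1236 1, TK1 was 1.34, CDT1 0.67 and GINS2 -1.34. Without L1236 0, RRM2 was -1.43 and GINS2 -1.13, and without KM-H2 0 POLA1 was 0.65. The calls of MCM6 against L428 and GINS2 against L1236 were lost without either Reh library too, and that of GINS2 without either L428 library, with the values unmoved.

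Of 18 p53 targets other than CDKN1A, 10 were higher in KM-H2 than in L1236, against 13.5% of all genes, and 0 lower, with a median of 1.13. Against L428, 5 were higher, beside 13.7% of all genes, 1 was lower and 12 were not called, with a median of 0.48. PLK2 was listed at 0 in both KM-H2 libraries. PHLDA3, which encodes an inhibitor of AKT, was 30.8 and 30.6 FPKM in KM-H2, 0 and 0.0645 in L1236 and listed at 0 in L428. Against L1236, FDXR differed by 2.55, GADD45A by 2.2 and BTG2 by 2.09. Against L428, BTG2 differed by 2.92, the RNA-binding protein gene ZMAT3 by 2.19 and the kinase gene PLK3 by 2.16 (limma, adjusted p = 1.5e-04 to 8.3e-04). L428 was in turn higher than L1236 in 4 and lower in 1, against 11% and 10.9% of all genes, counts that ran from 2 to 6 and from 0 to 2 over the alternatives. FDXR differed by 2.04, GADD45A by 1.76, the repair gene DDB2 by 1.55 and the nucleotide reductase gene RRM2B by 1.13. The calls of GADD45A and RRM2B were lost without L1236 0 (1.92 and 1.10), L1236 1 (1.61 and 1.16) or L428 1 (1.39 and 0.63). With only the 4 libraries compared, some of the named list genes were not called. Between L428 and L1236 these were E2F6, CDKN2B, TK1, CDT1, GADD45A and RRM2B. Between KM-H2 and L428 they were CCNH, GINS2, POLA1, MCM6, MCM3 and TTK, and between KM-H2 and L1236 CCNH, RRM2, MCM3 and GINS2.

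**Figure D4:**
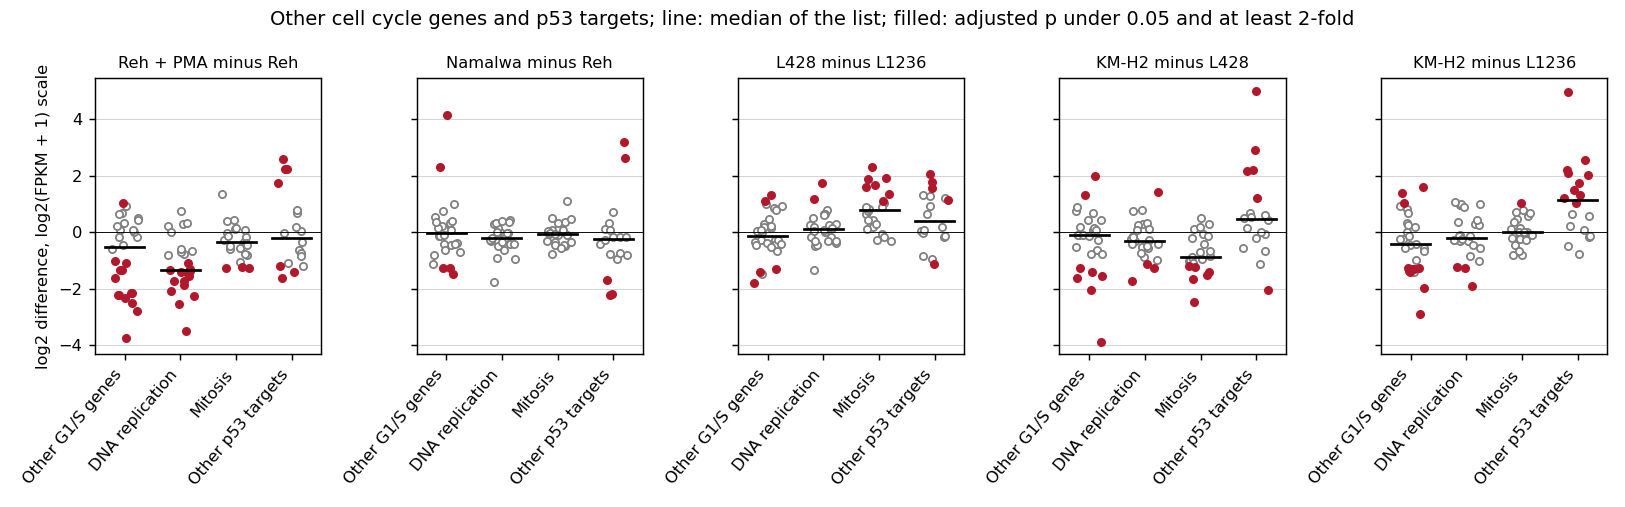
Log2 differences of the genes of 4 lists in the 5 tested comparisons, on the log2(FPKM + 1) scale. Each point is a gene, filled where the adjusted p was under 0.05 and the change at least 2-fold, and the line is the median of the list. DNA replication genes have a median of -1.32 after PMA, mitotic genes 0.80 between L428 and L1236, and p53 targets 1.13 between KM-H2 and L1236.

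The genes nearest in pattern were found for the 8 members whose group means ranged over at least 2 on the log2 scale, by the root mean square (RMS) difference of centred log2(FPKM + 1) profiles over 12 libraries. For CCND2 these were TTC39A (0.78), MSC (0.80) and TES (0.85). MSC, a repressor of B-cell transcription factors, was 16.9 to 101 FPKM in the Hodgkin libraries and 0 in the other 6. For CCND3 they were SULT1A1 (0.40), TERT (0.45) and HPS4 (0.63). TERT, the catalytic subunit of telomerase, was 22.9 and 12.9 FPKM in Reh, 6.34 and 6.86 in Namalwa, 0.892 and 1.15 in Reh with PMA, and at most 1.72 in the Hodgkin libraries.

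CDKN1A lay nearest to MLLT11 (RMS difference 0.64), SH2B3 (0.73) and PLEKHO1 (0.73). SH2B3, an adaptor that dampens cytokine signalling, was 17.0 and 14.2 FPKM in Reh and 125 and 151 after PMA. CDK6 lay nearest to WDFY3 (0.29), ZNF618 (0.37) and SPIN1 (0.37), and CDKN1B to LOC401312 (0.19), PIWIL2 (0.20) and FAM105A (0.26). RB1 lay nearest to MICU2 (0.22), TMEM165 (0.24) and AP4S1 (0.24), and CCND1 to S1PR3 (0.25), TUBGCP2 (0.29) and BCL6B (0.32). The distances were widest for CDKN2A, with HDGFRP3 (1.11), PLEKHA1 (1.26) and HLA-DQA1 (1.30). Small distances of CDKN1B and CCND1 partly reflect small ranges, since a gene that hardly moves has a short distance to many others.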

How the data were processed

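RNA libraries of 6 groups, 2 each, were analysed from the table of FPKM values that the authors deposited. Per the labels, reads were processed with TopHat2 2.0.11 and Cuffnorm 2.2.1 on hg19, from TruSeq stranded total RNA libraries. The annotation, the scaling method and strand use in counting are not given in the sources used here. Instruments were of 2 kinds, and which library ran on which is not stated. Columns named a group and a number that could not be matched to the replicate numbers of the labels. Read totals are not in the table. From low values, the FPKM worth of 1 fragment differed 6.06-fold between the library with the smallest (L1236 1) and the largest (KM-H2 0), and FPKM sums ran from 659400 to 1125000.

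Values were tested as log2(FPKM + 1) with limma 3.58.1 (R 4.3.3, eBayes with trend) on 14679 genes with FPKM of at least 1 in at least 2 libraries. All 12 libraries entered 1 fit of group means with 6 residual degrees of freedom, so the groups share an estimate of the spread. The script was tested on simulated data. Alternatives were a pseudocount of 0.1, no filter or an FPKM of 5, upper quartile scaling, quantile normalization, only the libraries compared, a block, no minimum difference, and each library left out. The members and lists were chosen with earlier results of these data known. Named genes were all 10 members, genes from among the 4 called of each list with the largest absolute log2 difference, and the 3 nearest in pattern. Promoter sequences came from RefSeq (GRCh38.p14) and were placed by exact match on GRCh37. Gene positions and overlaps came from GENCODE, and the annotation behind the FPKM values may place gene ends elsewhere.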

Additional observations from a re-analysis of the deposited data

How the results depend on the processing

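Of 17 calls of the 9 members other than CCND2 over the 5 comparisons, 9 kept their direction and call in every alternative. The member counts below include CCND2, which the results only describe. With quantile normalization 3 members were called between Namalwa and Reh, and CCND1 stood at 0.0693 there. With only the 4 libraries compared, 2052 genes and 2 members were called between L428 and L1236, and 1972 genes and 2 members between KM-H2 and L428, where fewer libraries enter the fit. With the spread of the 6 Hodgkin libraries alone, chosen after seeing the data, 1 member was called between L428 and L1236. Leaving out each library in turn, where the lone library is assumed to vary like the other groups, gave 2082 to 3363 genes for PMA. It gave 2 to 5 members between Namalwa and Reh, 1 to 5 between L428 and L1236, and 1 to 4 between KM-H2 and L1236. Differences that changed sign on leaving out a library, none of them called, ranged as follows: CDKN1B after PMA -0.34 to 0.24; between Namalwa and Reh CDK4 -0.0245 to 0.56 and RB1 -0.27 to 0.0135; between L428 and L1236 CDKN2C -0.31 to 0.13; between KM-H2 and L428 CCND3 -0.0745 to 0.48, CDKN2C -0.57 to 0.30 and RB1 -0.0189 to 0.92; between KM-H2 and L1236 CCND1 -0.14 to 0.0370, CDK6 -0.77 to 0.31, CDKN2C -0.66 to 0.21 and RB1 -0.91 to 0.0312. Between Hodgkin and control lines, CDKN2A was -0.0840 without L1236 and -1.84 without Reh, and CCND1 -0.0817 without L428. The cause was not tested. The column numbers were tried as a replicate block, in place of replicate numbers, and left all 50 member results with the same call. Differences between duplicates correlated at 0.427, 0.301 and 0.681 among the Hodgkin lines and between -0.045 and 0.357 in the other pairs. With 2 libraries a group, small differences could not be resolved, and read depth per library is known only in relative terms.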

Other observations

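Genes beside the members, within 200000 bases, gave further values. At the CDKN2A locus, MTAP stood at 27.0 and 30.1 FPKM in Namalwa and 9.38 and 11.6 in L428. It was at most 0.0696 in L1236, at 0.556 and 0.368 in KM-H2, and at most 0.0429 in the 4 Reh libraries. CDKN2B was listed at 0 in the 4 Reh libraries. L1236 thus combined the highest CDKN2A level with almost no MTAP, whereas both were low in KM-H2 and Reh. Beside RB1, ITM2B was 0 and 0.600 FPKM in KM-H2 and 17.9 to 80.2 in the other 10 libraries. RCBTB2, which overlaps RB1 on the other strand, was listed at 0 in both KM-H2 libraries, while RB1 itself stood at 20.9 and 10.4 there. CYSLTR2 stood at 24.1 and 19.1 in L1236 and was listed at 0 in the other 10. Near CDK4, PIP4K2C was 7.27 to 32.3 FPKM in the Hodgkin and Namalwa libraries and listed at 0 in all 4 Reh libraries, which held CDK4 at 46.7 to 96.2. In the same 4 libraries the nearby genes DTX3 and B4GALNT1 were at 0, and KIF5A and ARHGEF25 at most 0.0492 and 0.0295. DTX3 was also at 0 in KM-H2 0. OS9, in the same region, stood at 34.3 to 46.4 in the 4 Reh libraries. CCND2-AS1, which overlaps CCND2 on the other strand, was 0.434 to 2.37 in the Hodgkin libraries and 0 in the others. TIGAR, its neighbour on the same strand, was 7.44 and 6.80 in Reh with PMA and 1.06 to 3.35 in the other 10 libraries. These genes were picked after their values were seen.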
